A study of Arabidopsis thaliana with 6 samples.

Results

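The 8 genes described here encode GIGANTEA (GI), the 3 ZEITLUPE-family proteins ZTL, FKF1 and LKP2, and 4 CYCLING DOF FACTORs, CDF1, CDF2, CDF3 and CDF5. They were chosen by locus identifier because they form a known regulatory module. No measured value entered the rule, but earlier results of these data were known when they were chosen. All 8 were found among the 33602 genes of the count files. Their RNA was measured by sequencing in 3 libraries from athb1-1, a mutant of the homeodomain-leucine zipper transcription factor gene ATHB1, and 3 libraries from wild-type Columbia (WT). Every library came from whole Arabidopsis thaliana seedlings raised at 22 to 24 °C in short days, with 8 h lit and 16 h dark, after 3 days of stratification, and harvested 1 h before dawn. The labels give their age as 4 days and also as 72 h from the end of stratification. The labels name a single mutant allele, without its nature, and call the 3 libraries of a genotype biological triplicates. They do not say whether a library pooled several dishes, so p-values measure the spread between these libraries.

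GI is a large plant-specific protein that binds ZTL-family proteins in blue light and stabilises them. ZTL, FKF1 and LKP2 each join a light-sensing LOV domain, an F-box and kelch repeats, and mark other proteins for degradation: ZTL acts chiefly on the clock repressors TOC1 and PRR5, and FKF1 with GI acts on the CDF proteins. The CDFs are DOF-type DNA-binding repressors of CONSTANS (CO) and FLOWERING LOCUS T (FT), the pair that drives flowering in long days. Transcripts of GI and FKF1 are known to peak late in the day and those of the CDF genes around dawn, whereas ZTL RNA is known to change little over the day.

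The sequences just upstream of the genes are shown for FKF1, the gene with the fewest counts, for LKP2, the gene with the smallest p, and for CDF1 and CDF5, the pair with the largest positive fold changes. Each is the 250 bases before the annotated start in the TAIR10.1 RefSeq genome, read 5′ to 3′ on the strand of the gene, and capitals mark the motif that was found. FKF1 lies at chr1:25508389-25508638 on the plus strand, with an evening element in capitals. LKP2 lies at chr2:8197484-8197733 on the minus strand, with a CCA1-binding site in capitals. CDF1 lies at chr5:25071112-25071361 on the minus strand and held none of the motifs searched. CDF5 lies at chr1:26163716-26163965 on the minus strand, with a CCA1-binding site in capitals.
FKF1: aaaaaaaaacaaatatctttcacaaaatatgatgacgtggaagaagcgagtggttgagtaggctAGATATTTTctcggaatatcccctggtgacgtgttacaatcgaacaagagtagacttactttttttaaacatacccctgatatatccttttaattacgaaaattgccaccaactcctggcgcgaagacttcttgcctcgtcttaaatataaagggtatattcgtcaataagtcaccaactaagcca
LKP2: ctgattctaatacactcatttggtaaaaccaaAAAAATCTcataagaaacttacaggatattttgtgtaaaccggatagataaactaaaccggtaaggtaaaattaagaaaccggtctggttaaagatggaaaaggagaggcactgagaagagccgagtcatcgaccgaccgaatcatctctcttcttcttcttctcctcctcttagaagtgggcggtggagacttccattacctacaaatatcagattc
CDF1: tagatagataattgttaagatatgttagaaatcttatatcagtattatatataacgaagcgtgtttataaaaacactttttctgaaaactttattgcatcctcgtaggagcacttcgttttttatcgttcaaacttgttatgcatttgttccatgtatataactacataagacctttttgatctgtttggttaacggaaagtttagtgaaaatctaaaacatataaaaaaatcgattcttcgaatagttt
CDF5: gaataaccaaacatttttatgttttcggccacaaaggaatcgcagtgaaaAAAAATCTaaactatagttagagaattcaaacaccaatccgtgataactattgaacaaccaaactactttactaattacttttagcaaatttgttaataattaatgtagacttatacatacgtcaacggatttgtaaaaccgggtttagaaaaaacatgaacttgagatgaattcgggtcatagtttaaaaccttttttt
Both strands were searched for 4 motifs. The evening element AAAATATCT, found in many evening-phased genes, was present upstream of FKF1 alone among the 8, as its reverse complement AGATATTTT at 186 to 178 bases before the start, and in 2.36% of 27443 promoters of the same length. The CCA1-binding site AAAAATCT was present upstream of LKP2, 218 to 211 bases before the start, and of CDF5, 200 to 193 bases before it, and in 6.69% of all promoters. The G-box CACGTG was present upstream of CDF2, 77 to 72 bases before the start, and in 6.49% of all promoters. CAATNATTG, the pseudopalindrome bound by HD-Zip I proteins in vitro, was in 0 of the 8 windows and in 0.918% of all promoters. The first 2 motifs overlap in letters, and a match describes the letters of a window only. The LKP2 window lies wholly inside the annotated noncoding gene AT2G18917, which runs on the opposite strand.

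Gene counts totalled 12841376 to 13153615 per athb1-1 library and 11036314 to 11974342 per WT library, and replicates differed beyond sampling noise. ATHB1 was read from exon bins, since its gene counts were 0 in every library. The locus that joins ATHB1 with the overlapping AT3G01472 had 8.57 ± 0.504 CPM in athb1-1 and 405 ± 40.5 CPM in WT (SD, n = 3 each), a log2 fold change of −5.56 (SE 0.12 and adjusted p = 7.36e-11 in edgeR's quasi-likelihood test), which checks the labels. WT replicate 2 stood apart: seed storage markers summed to 48.4 CPM there, against 1.01 to 5.73 CPM in athb1-1 libraries and 2.13 and 7.43 CPM in the other WT libraries. Its short transcripts were also over-represented, by a median log2 deviation of 0.11 for the 10% of shortest transcripts, against −0.21 for the 10% of longest. Other libraries deviated by length too, though less. For shortest and longest transcripts, athb1-1 replicates 1 and 2 leaned the same way, at 0.04 and −0.01 and at 0.07 and −0.07. The opposite lean was seen in athb1-1 replicate 3, at −0.03 and 0.07, WT replicate 1, at −0.09 and 0.10, and WT replicate 3, at −0.08 and 0.14. The part of the make-up of WT replicate 2 in the results was not tested. Root markers summed to 262 to 282 CPM in athb1-1 and 263 to 277 CPM in WT, and markers of photosynthesis in cotyledons to 55136 to 65340 CPM in athb1-1 and 58367 to 71059 CPM in WT, so both organs named in the labels were represented. Of the root markers, 7 of 9 could be tested and their median log2 fold change was 0.01. All 8 photosynthesis markers were tested, with a median of −0.11. No marker of either list had an unadjusted p under 0.05 in edgeR (0 of 7 and 0 of 8) or in DESeq2.

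Across the 7 of the 8 genes that passed the filter on low counts, 0 were called at an adjusted p under 0.05 in edgeR's test, set against 0.0537% of 18626 genes tested (0.0215% higher and 0.0322% lower in athb1-1). At an unadjusted p under 0.05 there were 4 of 7, in the order of their p LKP2, CDF5, CDF1 and ZTL, against 5.24% of all genes. In athb1-1, LKP2 and ZTL were the lower pair (2.34% of all genes in that direction) and CDF1 and CDF5 the higher pair (2.9%). DESeq2 returned the same 4 genes at an unadjusted p under 0.05 among all 8, against 2.12% of all genes, and 0 after adjustment, against 0.11%. Without WT replicate 2, 0 of 7 were called in edgeR's test, against 0.873% of all genes, and 3 of 7, namely ZTL, LKP2 and CDF2, had an unadjusted p under 0.05, against 13.7%. The authors' deposited table held all 8 genes, with 4 at an unadjusted p under 0.05, against 4.8% of its 22955 genes, and 0 at an adjusted p under 0.05, against 0.209%. The libraries of the genotypes did not overlap for LKP2, ZTL and CDF5, as was true of 11.3% of all genes tested, 5.49% with athb1-1 lower, as for LKP2 and ZTL, and 5.86% with athb1-1 higher, as for CDF5. In extracts of whole seedlings, fewer cells of a type and less RNA per cell cannot be told apart.

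**Figure D1:**
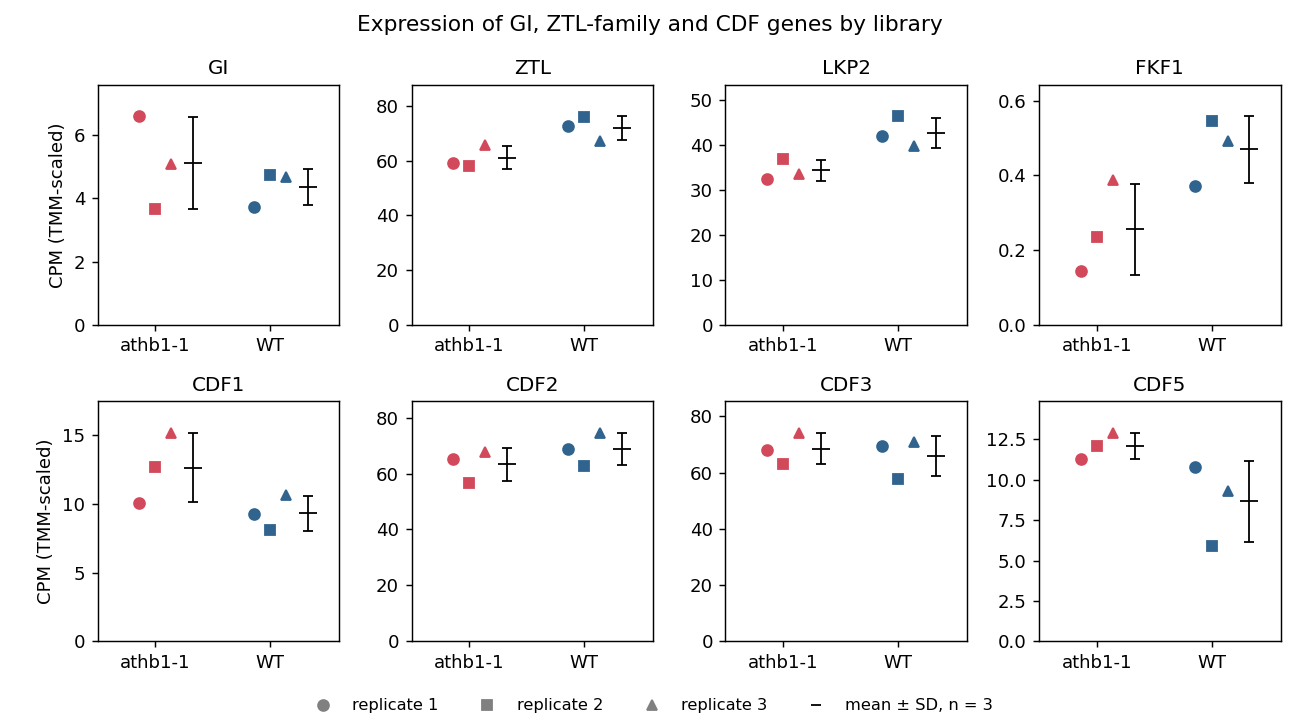
Level (y axis, CPM scaled with TMM factors, a separate scale starting at 0 in each panel) of the 8 genes in athb1-1 (left) and WT (right), with 1 point per library and the mean ± SD. The 3 athb1-1 points lie below all WT points for ZTL and LKP2 and above them for CDF5, and the genotypes overlap for the other 5 genes.

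GI (AT1G22770, chr1:8061751-8067790 in TAIR10.1, plus strand, 14 exons) gave few counts in tissue taken before dawn. Its counts were 91, 47 and 66 in athb1-1 and 40, 52 and 57 in WT, that is 6.60, 3.67 and 5.10 CPM in athb1-1 and 3.72, 4.73 and 4.67 CPM in WT. The highest and the lowest value both came from athb1-1 libraries, replicates 1 and 2, so the WT libraries lay within the mutant range. The log2 fold change was 0.23 (SE 0.22, 95% interval −0.24 to 0.70, adjusted p = 0.971), about the size of its SE. It was 0.00 without athb1-1 replicate 1, 0.13 without WT replicate 1 and 0.42 without athb1-1 replicate 2.

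The exon bin counts of GI were split into 3 stretches after their values were seen. Bins 1 to 9, the 5′ side, held 39, 21 and 36 counts in athb1-1 and 8, 9 and 24 in WT. Bin 10, exon 10 of 1533 bases and the longest of the gene, held 31, 19 and 22 counts in athb1-1 and 13, 17 and 14 in WT. Bins 11 to 14, the 3′ end, held 37, 14 and 20 counts in athb1-1 and 24, 36 and 27 in WT. The 3′ end thus took 34.6%, 25.9% and 25.6% of the bin counts of GI in athb1-1 and 53.3%, 58.1% and 41.5% in WT, 22.3 percentage points less in athb1-1 on average and with no overlap of libraries. Among 4292 genes with at least 10 bins and 30 counts per library, 2.26% had all athb1-1 libraries below all WT libraries for the share in the corresponding 3′ bins, and the median gene's share was 38.4 to 40.3% in athb1-1 and 38.1 to 39.9% in WT. The 2.26% covers only the direction seen in GI, and no share for the other direction is given. The fit of exon bin usage could test bins 10 and 14 of GI, and gave a Simes p of 0.222 for the gene.

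ZTL (AT5G57360, chr5:23241320-23244590, plus strand) was the most abundant of the 3 photoreceptor genes. It had 59.3, 57.9 and 65.7 CPM in athb1-1 and 72.5, 75.9 and 67.1 CPM in WT, with every athb1-1 library below every WT library. The nearest pair, athb1-1 replicate 3 and WT replicate 3, differed by little. The means were 61.0 ± 4.18 CPM in athb1-1 and 71.8 ± 4.40 CPM in WT (SD, n = 3 each), and the log2 fold change was −0.24 (SE 0.09, 95% interval −0.44 to −0.03, adjusted p = 0.939 in edgeR's test), which was not called.

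LKP2 (AT2G18915, chr2:8194512-8197483, minus strand), the closest relative of ZTL, had 32.5, 36.9 and 33.6 CPM in athb1-1 and 41.9, 46.4 and 39.9 CPM in WT. Again all 3 mutant libraries lay below the WT libraries. Its mean was 34.3 ± 2.31 CPM in athb1-1 and 42.7 ± 3.34 CPM in WT (SD, n = 3 each), a log2 fold change of −0.32 (SE 0.10, 95% interval −0.53 to −0.10). With an unadjusted p of 0.00801 it ranked 180th of 18626 genes, and its adjusted p of 0.829 in edgeR's test was not past the threshold. Without WT replicate 2 the log2 fold change was −0.26, with an adjusted p of 0.188 in edgeR's test. The 5′ end of LKP2 shares 370 bases with the oppositely transcribed noncoding gene AT2G18917, which had 1.09, 1.33 and 1.16 CPM in athb1-1 and 1.49, 1.82 and 1.06 CPM in WT. No source used here states whether counting heeded strand, so reads of that stretch cannot be assigned to either gene.

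FKF1 (AT1G68050, chr1:25508639-25510907, plus strand), the partner of GI in degrading CDF proteins, was close to undetected and did not pass the filter. It had 2, 3 and 5 counts in athb1-1 and 4, 6 and 6 counts in WT, or 0.145, 0.234 and 0.387 CPM in athb1-1 and 0.372, 0.546 and 0.491 CPM in WT. The highest athb1-1 library lay just above the lowest WT library. The 10 counts in athb1-1 and 16 in WT gave a depth-scaled ratio of 0.537, with a 95% interval of 0.218 to 1.26 that covers counting error only, so a difference was not detectable at this depth. FKF1 overlaps the oppositely transcribed MAP70-1, a microtubule-associated protein gene, by 21 bases at its 3′ end. MAP70-1 had a log2 fold change of 0.29 (SE 0.14 and adjusted p = 0.939 in edgeR's test).

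Within the ZTL family, levels per exon length were used to give each gene's share. ZTL made up 62.8 ± 2.61% of the summed CPM per kilobase in athb1-1 and 61.5 ± 0.700% in WT, and LKP2 made up 36.9 ± 2.66% in athb1-1 and 38.1 ± 0.634% in WT (SD, n = 3 each). FKF1 averaged 0.293% in athb1-1 and 0.453% in WT. The balance of ZTL and LKP2 differed between genotypes by less than the spread between athb1-1 libraries.

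CDF1 (AT5G62430, chr5:25069093-25071111, minus strand), the first-described repressor of CO in the family, had 139, 163 and 196 counts in athb1-1 and 100, 89 and 130 counts in WT. These were 10.1, 12.7 and 15.2 CPM in athb1-1 and 9.29, 8.10 and 10.6 CPM in WT. The mutant libraries reached higher values, but athb1-1 replicate 1 lay below WT replicate 3. The log2 fold change was 0.43 (SE 0.17, 95% interval 0.07 to 0.79, adjusted p = 0.939 in edgeR's test) and was 0.33 without WT replicate 2 and 0.28 without athb1-1 replicate 3.

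CDF5 (AT1G69570, chr1:26161528-26163715, minus strand) had 156, 155 and 167 counts in athb1-1 and 116, 65 and 114 counts in WT. In CPM it stood at 11.3, 12.1 and 12.9 in athb1-1 and 10.8, 5.91 and 9.33 in WT, with no overlap between genotypes. The lowest of the 6 values was that of WT replicate 2. The log2 fold change was 0.48 (SE 0.18, 95% interval 0.08 to 0.88, adjusted p = 0.939 in edgeR's test), the largest of the 7 tested genes in size. Without WT replicate 2 it was 0.26 (SE 0.14 and adjusted p = 0.413 in edgeR's test).

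The counts of CDF5 depended on how they were made. Its exon bins held 65.5% of its gene count over all libraries, whereas the median of 18422 tested genes was 114%, so that 1 read could count in several bins, and 0.423% of genes had a lower value. The bins alone gave 7.18, 6.95 and 8.59 CPM in athb1-1 and 8.18, 4.00 and 6.14 CPM in WT, which overlapped. The gene count in excess of the bins was 4.14, 5.15 and 4.33 CPM in athb1-1 and 2.60, 1.91 and 3.19 CPM in WT, which did not overlap. This contrast was not among the planned comparisons, and no share of all genes with such a pattern is given. As 1 read could count in several bins, the excess is not a count of reads outside the bins. With bins summed per locus the log2 fold change was 0.31 (SE 0.22). The antisense noncoding gene AT1G69572, known as FLORE, runs opposite to CDF5 at chr1:26161551-26162791 and covers 1154 bases of its exons. It was listed at 0 in all 6 libraries, and with strand use unstated, reads from CDF5 and from FLORE cannot be told apart.

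CDF2 (AT5G39660, chr5:15878698-15881537, plus strand) had 65.3, 56.7 and 67.8 CPM in athb1-1 and 68.9, 62.9 and 74.5 CPM in WT. The genotypes overlapped, and the log2 fold change of −0.12 (SE 0.10 and adjusted p = 0.971 in edgeR's test) had a 95% interval of −0.35 to 0.10. It was −0.05 without athb1-1 replicate 2, −0.06 without WT replicate 3 and −0.19 without WT replicate 2, where the adjusted p in edgeR's test was 0.341. CDF3 (AT3G47500, chr3:17503883-17506124, minus strand), a CDF also linked to cold and drought tolerance, had 68.2, 63.1 and 74.2 CPM in athb1-1 and 69.3, 57.7 and 70.8 CPM in WT. Its values were interleaved, with a log2 fold change of 0.05 (SE 0.11, 95% interval −0.18 to 0.29, adjusted p = 0.978 in edgeR's test) that was −0.04 without WT replicate 2. CDF2 and CDF3 were therefore the abundant CDF transcripts, and their intervals were the narrowest of the 4 CDF genes.

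**Figure D2:**
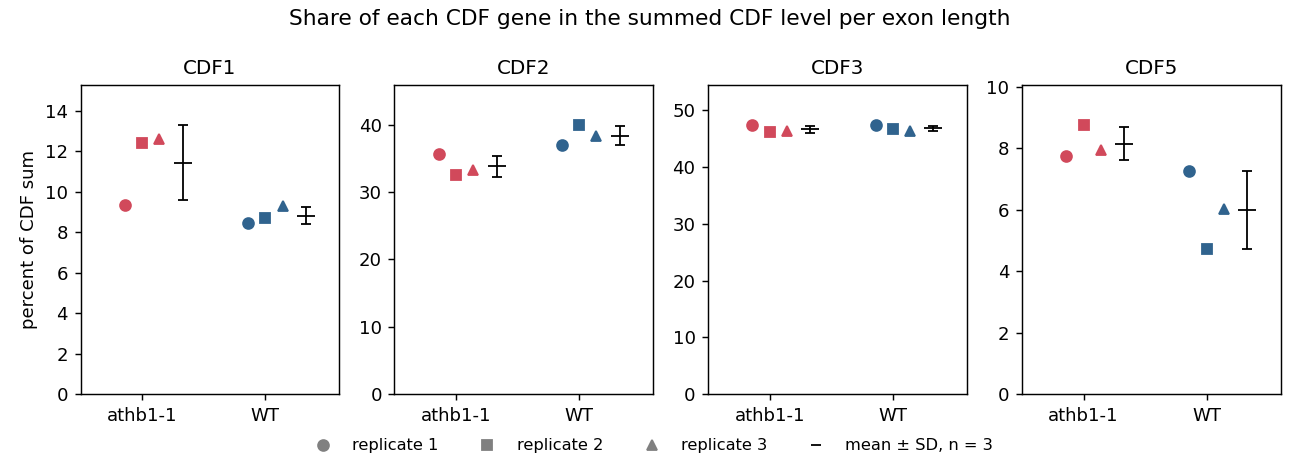
Share of each CDF gene in the summed level of the 4 CDF genes (y axis, percent of CPM per kilobase of exon) in athb1-1 (left) and WT (right), with 1 point per library and the mean ± SD. CDF2 takes 32.6 to 35.6% in athb1-1 and 37.0 to 39.9% in WT, and CDF3 takes 46.2 to 47.3% in athb1-1 and 46.4 to 47.3% in WT.

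The 4 CDF genes were also set against each other by their share of the summed level per exon length. CDF2 took 35.6%, 32.6% and 33.2% in athb1-1 and 37.0%, 39.9% and 38.3% in WT. CDF1 took 9.33%, 12.4% and 12.6% in athb1-1 and 8.45%, 8.73% and 9.29% in WT, and CDF5 took 7.74%, 8.74% and 7.94% in athb1-1 and 7.25%, 4.71% and 6.02% in WT. CDF3 stayed between 46.2 and 47.3% in athb1-1 and between 46.4 and 47.3% in WT. In gene counts the shares of CDF1, CDF2 and CDF5 did not overlap between genotypes, a pattern picked out after the values were seen and given without a test. For CDF1 the nearest libraries were at 9.33% in athb1-1 and 9.29% in WT. How often shares within other gene families fail to overlap was not computed. With exon bins summed per locus, an alternative added after seeing the data, CDF2 alone did not overlap, at 37.4%, 34.0% and 34.8% in athb1-1 and 38.3%, 41.0% and 39.2% in WT. From bins, CDF1 took 9.48%, 13.3% and 13.1% in athb1-1 and 8.42%, 9.32% and 10.1% in WT, and CDF5 took 4.85%, 4.98% and 5.24% in athb1-1 and 5.43%, 3.10% and 3.87% in WT. Shares of 1 sum are tied to each other, so these are not independent differences.

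**Figure D3:**
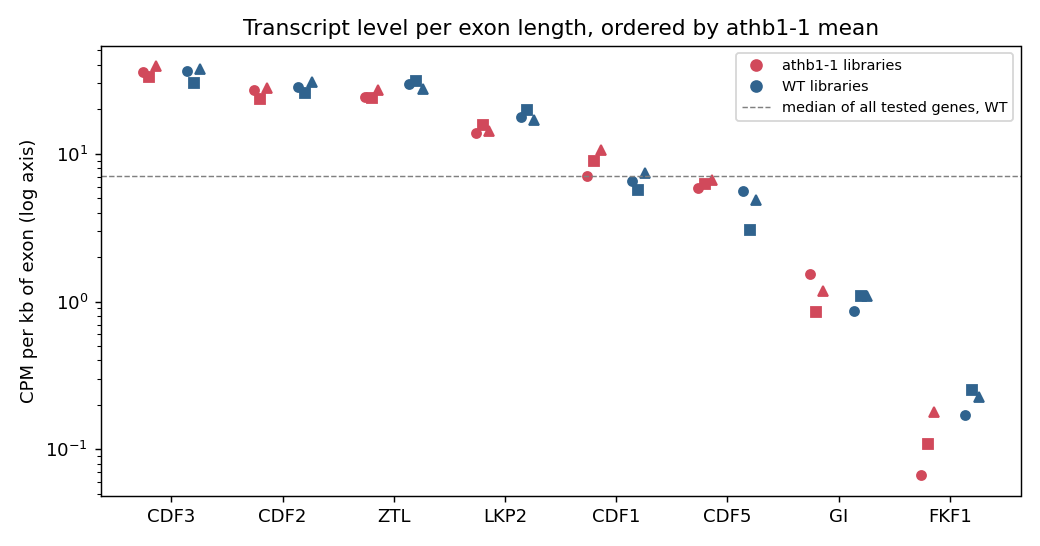
Level per exon length (CPM per kilobase, logarithmic axis) of the 8 genes in athb1-1 and WT, with 1 point per library, ordered by the athb1-1 mean. A dashed line marks the WT median of the genes that passed the filter on low counts, 7.07. CDF3, CDF2, ZTL and LKP2 lie above the line, CDF1 and CDF5 near it, and GI and FKF1 below it.

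Per kilobase of exon, the order of levels ran over more than 2 orders of magnitude. CDF3 stood at 36.0 ± 2.92 CPM per kilobase in athb1-1 and 34.7 ± 3.79 in WT, above 84.9% of 18517 tested genes in WT. Those genes had passed the filter on low counts, which FKF1 did not, so genes with fewer counts are left out. CDF2 stood at 26.1 ± 2.42 in athb1-1 and 28.4 ± 2.41 in WT, and ZTL at 25.0 ± 1.71 in athb1-1 and 29.4 ± 1.80 in WT. CDF2 and ZTL were not separated by their libraries in either genotype, and in WT the libraries of CDF3 overlapped those of both. LKP2 followed at 14.6 ± 0.984 in athb1-1 and 18.2 ± 1.42 in WT. CDF1, at 8.88 ± 1.78 in athb1-1 and 6.55 ± 0.894 in WT, and CDF5, at 6.28 ± 0.414 in athb1-1 and 4.5 ± 1.3 in WT, lay near the median tested gene. GI was far lower at 1.19 ± 0.341 in athb1-1 and 1.02 ± 0.132 in WT, above 10.2% of the tested genes in WT. FKF1 was lowest at 0.118 ± 0.0564 in athb1-1 and 0.217 ± 0.0411 in WT, above 0.130% of the tested genes in WT (all SD, n = 3 each). From LKP2 downward no neighbours in the order overlapped in either genotype.

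Exon bin usage was tested for 7 of the 8 genes, FKF1 having too few counts. None passed the adjusted threshold in edgeR's exon usage test, against 0.00781% of 12808 genes, and 0 of 7 had an unadjusted Simes p under 0.05, against 0.617%. The bins of ZTL, LKP2, CDF1, CDF2 and CDF3 had Simes p of 0.889 or more. Sequence shared between relatives was short: the longest exact run shared by any pair was 24 bases, between CDF3 and CDF5, followed by 23 bases between CDF1 and CDF2 and 20 bases between ZTL and LKP2.

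The proteins that ZTL-family members act on or with gave no called transcript. Of 8 genes listed for the substrates TOC1, PRR5 and CHE, the ubiquitin ligase subunits ASK1, ASK2, CUL1 and RBX1 and the chaperone HSP90.2, 0 passed in edgeR and 0 had an unadjusted p under 0.05 in edgeR or DESeq2. Their fold changes were positive for 1 and negative for 7, with a median of −0.03 on the log2 scale, beside 0.01 for all genes, of which 48.3% were negative. TOC1, the evening repressor of the clock, had 18.3, 15.1 and 17.9 CPM in athb1-1 and 18.8, 18.9 and 20.2 CPM in WT, each mutant library below the WT libraries, and a log2 fold change of −0.18 (SE 0.11 and adjusted p = 0.947 in edgeR's test). Every athb1-1 library was lower for 5.49% of all genes tested. PRR5, another repressor of the clock, had 23, 16 and 18 counts in athb1-1 and 14, 17 and 20 counts in WT, with a log2 fold change of −0.06 (SE 0.27). HSP90.2, a chaperone that helps ZTL mature, had the smallest p of the list, with 114, 131 and 108 CPM in athb1-1 and 93.4, 113 and 103 CPM in WT, which overlapped, and a log2 fold change of 0.19 (SE 0.11 and adjusted p = 0.947 in edgeR's test). Without WT replicate 2 it was 0.25. HSP90.2 was then the 1 of 8 with an unadjusted p under 0.05 in edgeR's test, against 13.7% of all genes, and its adjusted p was 0.164.

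The flowering genes downstream of the CDFs were near the limit of detection. CO had 8, 10 and 8 counts in athb1-1 and 9, 15 and 13 counts in WT, or 0.660 ± 0.106 CPM in athb1-1 and 1.09 ± 0.265 CPM in WT (SD, n = 3 each). The counts overlapped, but the CPM did not, with a highest value of 0.781 in athb1-1 and a lowest of 0.836 in WT. Of all genes tested, 5.49% had every athb1-1 library lower. The log2 fold change of −0.72 (SE 0.35 and adjusted p = 0.947 in edgeR's test) had a wide 95% interval of −1.48 to 0.04. It was −0.54 without WT replicate 2. FT, the mobile flowering signal, had 1, 0 and 1 counts in athb1-1 and 0, 1 and 1 counts in WT, and its relative TSF had 1 count in all, in an athb1-1 library. Of 8 genes in the flowering list 6 could be tested and 0 passed. FBH1, a bHLH activator of CO, was the 1 with an unadjusted p under 0.05 in edgeR, against 5.24% of all genes. DESeq2 gave 0 such genes. FBH1 had 7.04, 7.26 and 7.89 CPM in athb1-1 and 5.02, 6.19 and 5.90 CPM in WT. Its log2 fold change was 0.37 (SE 0.15 and adjusted p = 0.939 in edgeR's test). The 6 tested genes had 3 positive and 3 negative fold changes, with a median of 0.06. Without WT replicate 2, FBH1 and TPL, a corepressor gene, had an unadjusted p under 0.05 in edgeR's test, against 13.7% of all genes.

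Other DOF factors of the CDF group, CDF4, CDF6 and COG1, gave 0 calls of 3 in edgeR and 0 at an unadjusted p under 0.05 in edgeR and DESeq2, with 1 positive and 2 negative fold changes and a median of −0.12. CDF6 had 5.88, 6.40 and 5.88 CPM in athb1-1 and 4.83, 4.91 and 4.91 CPM in WT, a log2 fold change of 0.31 (SE 0.15 and adjusted p = 0.940 in edgeR's test) with the mutant libraries above the WT libraries. Of all genes tested, 5.86% had every athb1-1 library higher. The wider clock list gave 0 calls of 13 tested genes, against 0.0537% of all genes tested. Fold changes were positive for 1 and negative for 12, with a median of −0.14 on the log2 scale. Over all genes tested 48.3% were negative and the median was 0.01. At an unadjusted p under 0.05 stood RVE1 and LUX in edgeR, against 5.24% of all genes, and RVE1 alone in DESeq2, against 2.12%. RVE1, a morning MYB factor, had 165, 166 and 202 CPM in athb1-1 and 240, 210 and 217 CPM in WT, with a log2 fold change of −0.32 (SE 0.11). Without WT replicate 2, 7 of the 13 clock genes had an unadjusted p under 0.05 in edgeR's test, against 13.7% of all genes. RVE1 then stood at −0.37 with an adjusted p of 0.0506 in edgeR's test. LNK2 was called in that fit, as were 0.873% of all genes. LUX, a DNA-binding part of the evening complex, had 138, 141 and 110 counts in athb1-1 and 112, 145 and 169 counts in WT, or 9.84 ± 1.26 CPM in athb1-1 and 12.5 ± 1.82 CPM in WT (SD, n = 3 each), with overlapping libraries and a log2 fold change of −0.34 (SE 0.15).

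**Figure D4:**
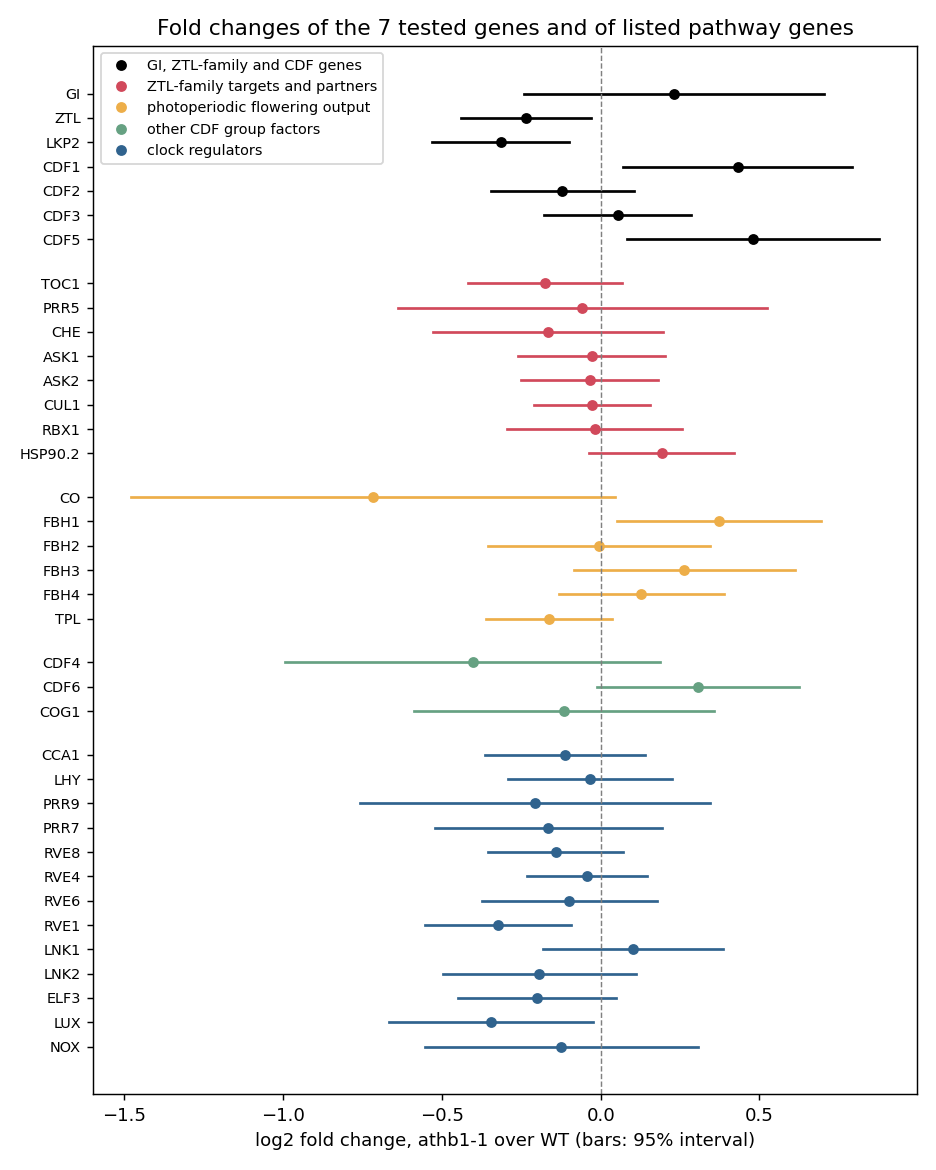
Log2 fold change of athb1-1 over WT (x axis) with 95% intervals for the 7 tested genes and for the tested genes of the 4 pathway lists (rows, coloured by list). Intervals of ZTL, LKP2, CDF1 and CDF5 exclude 0, and intervals of FBH1, RVE1 and LUX do so among the listed genes, before any adjustment for the 18626 genes tested.

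The genes whose pattern over the 6 libraries was nearest to that of LKP2 were found by the root mean square difference of library-centred log2 CPM among 18625 other genes. HDA08, a histone deacetylase gene, differed by 0.0133 and had a log2 fold change of −0.29 (SE 0.10). SOT12, a sulfotransferase gene, differed by 0.0329 and had −0.28 (SE 0.11), and AT4G33480 differed by 0.0340 and had −0.35 (SE 0.11). These genes were picked for their likeness to LKP2, so fold changes close to that of LKP2 follow from the choice. The likeness describes these 6 libraries, in which depth and library make-up are shared by all genes.

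**Figure D5:**
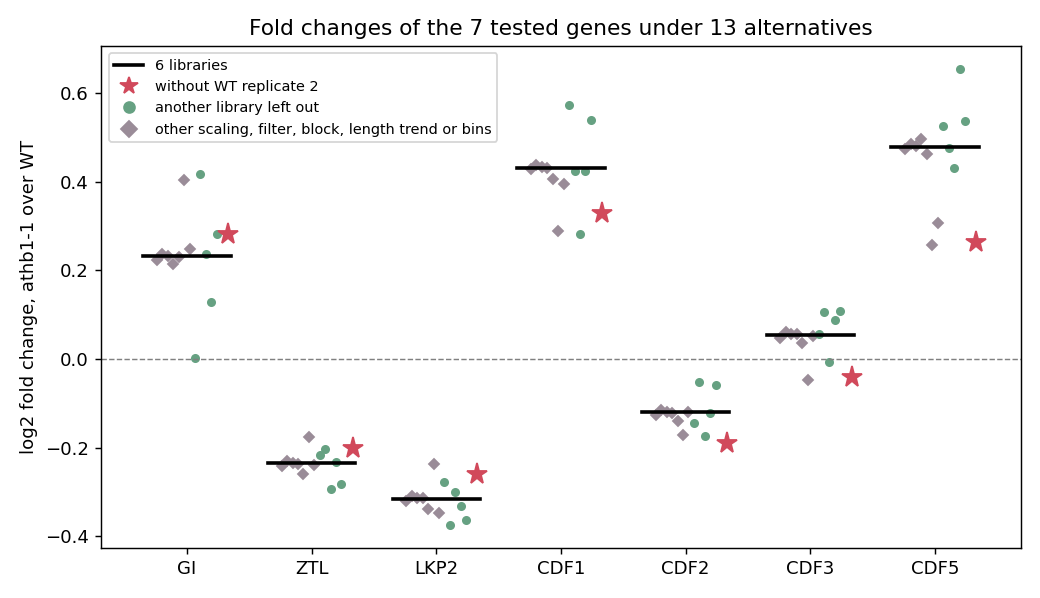
Log2 fold change of athb1-1 over WT (y axis) of the 7 tested genes with all 6 libraries (black line), under each alternative (points) and without WT replicate 2 (star). LKP2 and ZTL stay below 0 and CDF1 and CDF5 above 0 throughout, and CDF3 lies on both sides of 0.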

How the data were processed

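The authors deposited raw counts per gene and raw counts per exon bin for each of the 6 libraries. TopHat2 2.0.8 and Bowtie2 2.1.0 aligned the reads to TAIR10, according to the submitters' processing notes. No source used here names the counting program, its use of strand or its annotation. The authors' deposited table gives log2 fold changes, mean log2 CPM, p-values and adjusted p-values per gene, from a tool that its headers do not name. Its log2 fold changes are WT over athb1-1 and were turned round. The signal per library that the authors deposited beside them, in 6 columns, served only to check that sign.

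Counts of all 6 libraries entered edgeR 4.0.16 in R 4.3.3 (TMM, filterByExpr with a minimum count of 10, robust quasi-likelihood F-test, no term but genotype). Calls needed a Benjamini-Hochberg adjusted p under 0.05 over the 18626 genes tested. Fold changes are athb1-1 over WT, the SE is the log2 fold change over the square root of F, and CPM carry TMM factors. Exon usage was tested with diffSpliceDGE, ATHB1 on exon bins summed per locus. Levels were compared between genes per kilobase of merged exons. DESeq2 1.42.0 was an alternative. Positions, counted from 1, and promoter sequences come from RefSeq's TAIR10.1, where 32835 of 33602 gene identifiers were found. In simulated counts of athb1-1 against WT, edgeR recovered 86 of 99 genes given a log2 change of 1 and 97 of 98 given 2, with 9 false calls among 18457 genes.

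The 8 genes and the lists were chosen with earlier results of these data known. Named were the 8 genes, TOC1, PRR5, CO and FT, in each list the gene with the smallest p and those with an unadjusted p under 0.05, the 3 genes most like LKP2, annotated genes that overlap the 8, and ATHB1.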

Additional observations from a re-analysis of the deposited data

How the results depend on the processing

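None of the 7 tested genes was called under any of the 13 alternatives, and the lowest adjusted p among them was 0.188, for LKP2 without WT replicate 2. ZTL, LKP2, CDF1, CDF2 and CDF5 kept their direction under all 13, and GI stood at about 0 without athb1-1 replicate 1. The log2 fold change ranged over 0.00 to 0.42 for GI, −0.29 to −0.18 for ZTL, −0.37 to −0.24 for LKP2, 0.28 to 0.57 for CDF1, −0.19 to −0.05 for CDF2 and 0.26 to 0.66 for CDF5. CDF3 changed sign, with −0.041 to 0.11 when each library was left out in turn and −0.048 with the length trend removed and WT replicate 2 left out, and PRR5 ranged over −0.18 to 0.028 with each library left out; the cause was not tested. The count of called genes, 10, was 22 in DESeq2, 19 with no filter on low counts and 112 with the length trend removed and WT replicate 2 left out, and 8 to 165 when each library was left out, the highest without WT replicate 2. Of the listed pathway genes 0 to 1 were called when each library was left out, the 1 being LNK2 without WT replicate 2 (log2 fold change −0.36, adjusted p = 0.0380 in edgeR's test), and with the length trend also removed 1 was called, RVE1. With the replicate number as a block 12 genes and 0 of the 7 were called. Same-numbered libraries deviated together with correlations of −0.05, 0.21 and 0.11 over 18626 genes, and not every library correlated best with its own number. With 3 libraries per genotype, these correlations cannot decide whether same-numbered libraries were handled together. Genes with few counts, FKF1, FT and TSF, are limited by depth, and with 3 libraries per genotype the 95% intervals in the text show which sizes of change the data do not exclude.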
